A study of Sus scrofa with 6 samples.

Results

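The genes of TGF-beta and activin signalling were described in single-cell RNA sequencing of 6 libraries labelled as skin, across libraries and across cell types called from marker genes. The 10 genes were chosen by name and matched exactly to the gene symbols in the files, and they make up 10 of 32285 gene features. They were the TGF-beta ligand genes Tgfb1 (ENSMUSG00000002603), Tgfb2 (ENSMUSG00000039239) and Tgfb3 (ENSMUSG00000021253), the activin subunit gene Inhba (ENSMUSG00000041324) and the activin inhibitor gene Fst (ENSMUSG00000021765). The others were the receptor genes Tgfbr1 (ENSMUSG00000007613), Tgfbr2 (ENSMUSG00000032440) and Tgfbr3 (ENSMUSG00000029287), the feedback inhibitor gene Smad7 (ENSMUSG00000025880) and the matrix gene Tgfbi (ENSMUSG00000035493). All 10 were listed in all 6 libraries.

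TGF-beta is secreted in a latent complex, released by integrins and proteases, and bound by the type II receptor Tgfbr2, which recruits and phosphorylates the type I receptor Tgfbr1. Tgfbr1 in turn phosphorylates the transcription factors Smad2 and Smad3. Activin A, a dimer of the Inhba product, signals to the same Smads through its own receptors, and follistatin, the product of Fst, binds activin and blocks it. In skin both pathways are known for wound closure, matrix deposition and scarring.

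Each library held unsorted cells, and each label had 1 library. The pretreatment, continuous, acute and chronic labels name a 1 mg patch of DFO (deferoxamine, an iron chelator). By the labels, the patch was given before radiotherapy (2 weeks, pretreatment) or for the whole experiment (18 weeks, continuous). The acute label names 12 weeks of recovery after radiation and the chronic label 4 weeks after recovery. The other labels are irradiated skin, which the submitters call the control, and normal skin with no treatment. Age and number of animals per library are not given in the sources used here.

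The labels and the files disagreed on the organism. Red duroc pigs are named in the labels, but all 32285 gene features were mouse Ensembl identifiers. In addition, 4 hashtag antibodies against mouse proteins were counted in the acute, chronic, irradiated and normal libraries, with no source linking a hashtag to an animal. The series carries a title on post-surgical adhesions and a drug against JUN. Library names below are the labels' own, and whether they describe these cells could not be checked.

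The libraries held 1811 (pretreatment) to 25052 (acute) barcodes and 18611144 to 54966435 gene UMIs (unique molecular identifiers, each standing for 1 captured RNA molecule). After filters, 1477 cells were kept in pretreatment, 8213 in continuous, 21719 in acute, 8466 in chronic, 19911 in irradiated and 15938 in normal. Pretreatment stood apart, with the fewest barcodes, the highest median of 7040 UMIs per barcode against 1339 to 3023 in the other libraries, and neutrophils at 1.42% of kept cells against 24.5% to 39.2%. Pairs of libraries shared 3 to 153 barcodes. Cells were assigned to a type when they held at least 3 of its marker genes and more than of any other type, which gated 81.3% to 93.9% of kept cells. None of the 10 genes was a marker. Fibroblasts were 38.6% of kept cells in pretreatment, 6.40% in continuous, 9.48% in acute, 4.19% in chronic, 8.88% in irradiated and 14.8% in normal. The keratinocyte gate held 86 to 356 cells in each library, and no cell of any library passed the gate for mesothelium, the lining of body cavities. All 14 keratinocyte markers were detected in the keratinocyte gate of every library. Cells enter that gate by these same markers, so their detection is no separate check of the tissue.

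Levels are CPM, the UMIs of a gene scaled to a common total of UMIs summed over all cells of 1 type in 1 library. Differences between cell types were tested over libraries with edgeR's quasi-likelihood test, with the library as a block and Benjamini-Hochberg adjustment over all genes and all 21 pairs of 7 types. A gene was called in a pair of types at an adjusted p under 0.05. Of 210 tests on the 10 genes, 144 were called, a share to be read against 55.0% of tests over all genes. Neutrophils had a median TMM scaling factor of 0.499 against 0.880 to 1.33 in the other types. Differences are therefore stated only where the call and direction also held with plain library sizes, which left 122 of the 210. Whether the libraries are separate animals is not stated in the labels, so these p-values measure the spread between libraries of different labels.

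**Figure D1:**
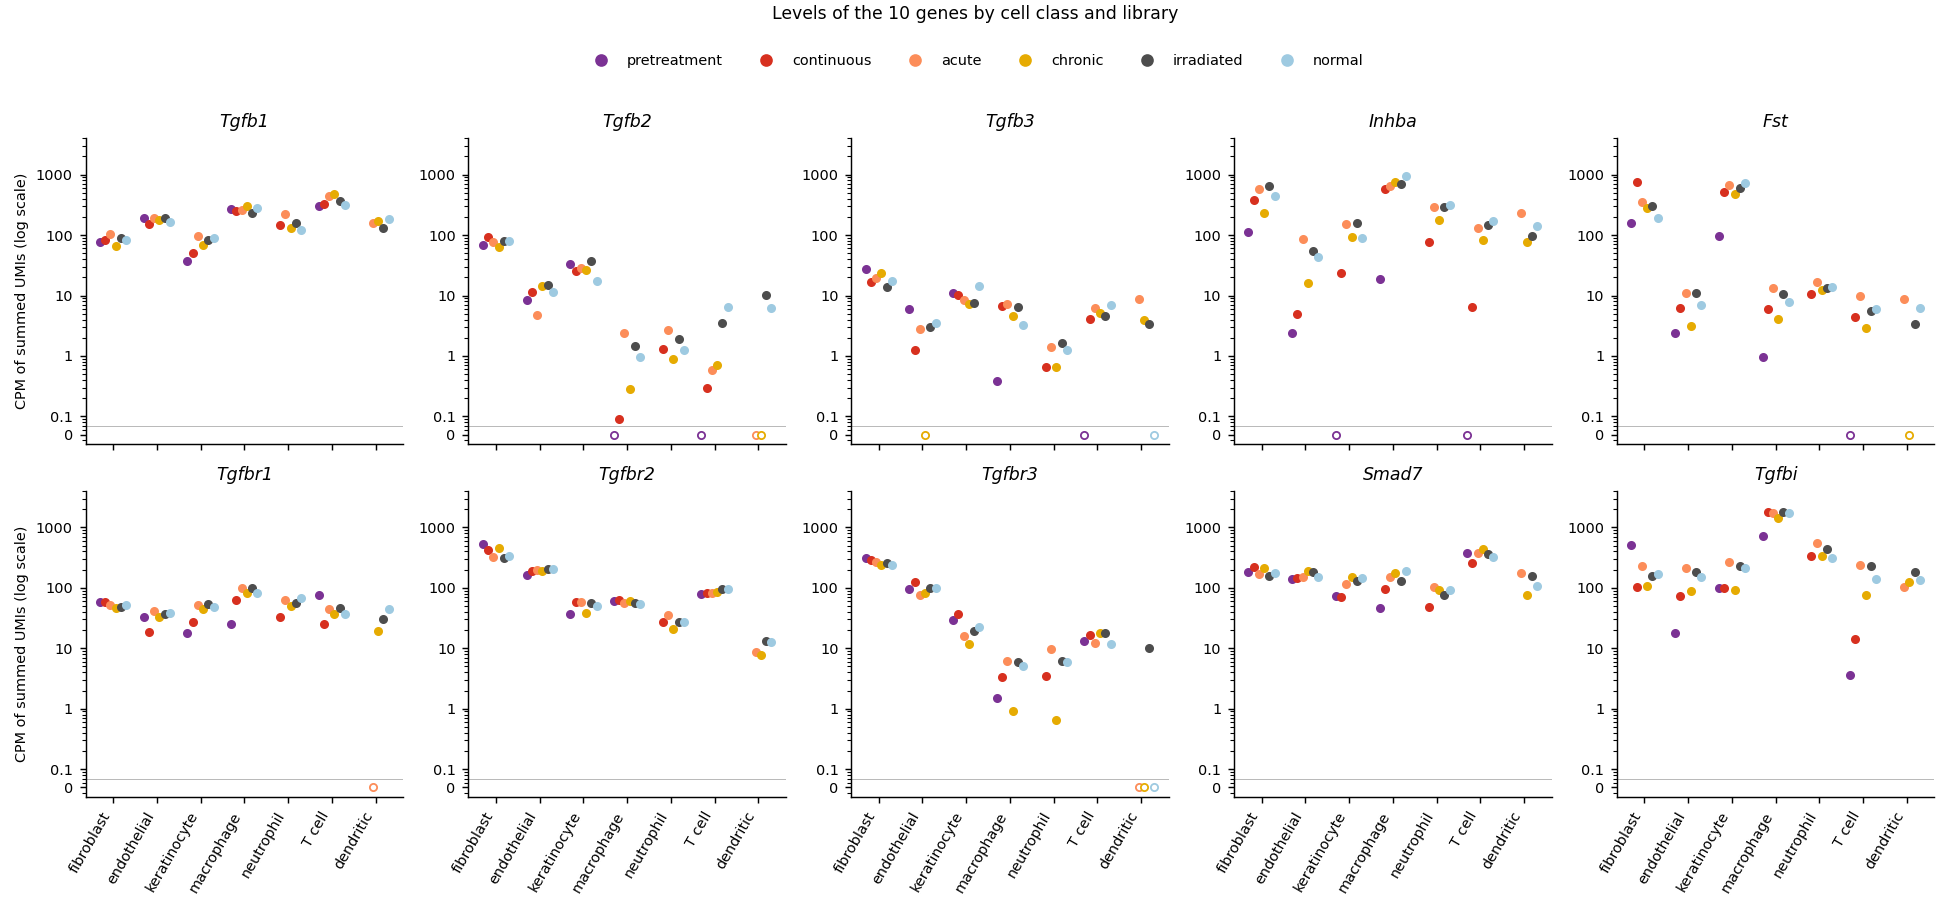
CPM of summed UMIs (log scale, with open symbols at 0) of each of the 10 genes in 7 cell types, with 1 point for each library that held at least 50 cells of the type. Tgfbr2 and Tgfbr3 were highest in fibroblasts in every library, Tgfbi in macrophages or monocytes, and the pretreatment points of Inhba lie below the other libraries' points.

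Tgfb1 had its highest CPM in T cells and in macrophages or monocytes (called macrophages from here on). T cells held 302 CPM in pretreatment, 323 in continuous, 441 in acute, 471 in chronic, 369.6 in irradiated and 314 in normal. In macrophages the level was 270.4 CPM in pretreatment, 252 in continuous, 264 in acute, 305 in chronic, 232 in irradiated and 279 in normal. T cells were above macrophages in every library, but the difference was not called (log2 0.04, SE 0.16, adjusted p = 0.873 in edgeR), although plain library sizes gave log2 0.45 with an adjusted p of 0.0078. Over the libraries the means were 369.9 ± 71.1 CPM in T cells, 267 ± 24.9 in macrophages and 178 ± 17.7 in vascular endothelial cells (SD, n = 6 each). Neutrophils averaged 156 ± 38.1 CPM (SD, n = 5), and edgeR separated them neither from T cells (T cells over neutrophils log2 -0.01, SE 0.17, adjusted p = 0.972) nor from macrophages (macrophages over neutrophils log2 -0.05, SE 0.17, adjusted p = 0.846). With plain library sizes T cells exceeded neutrophils by log2 1.29 (adjusted p = 1.1e-08 in edgeR) and macrophages exceeded them by log2 0.83 (adjusted p = 2.2e-05). Fibroblasts averaged 83.5 ± 12.0 CPM and keratinocytes 70.2 ± 22.8 (SD, n = 6 each). Macrophages exceeded endothelial cells by log2 1.18 (SE 0.17, adjusted p = 1.9e-07) and fibroblasts by log2 1.97 (SE 0.17, adjusted p = 2.8e-12). Natural killer cells reached 50 cells in the normal library only, where they held 567 CPM from 62 UMIs.

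Tgfb2 was highest in fibroblasts and next in keratinocytes among the types compared over the libraries, and Tgfb3 was highest in fibroblasts. Tgfb2 in fibroblasts was 68.5 CPM in pretreatment, 94.5 in continuous, 77.0 in acute, 63.2 in chronic, 79.5 in irradiated and 79.7 in normal. The 95% counting interval of continuous (86.4 to 103) lay above those of the other libraries, of which normal reached highest (74.4 to 85.4). Keratinocytes were next, with 33.5 CPM in pretreatment, 25.8 in continuous, 28.7 in acute, 26.9 in chronic, 36.7 in irradiated and 17.2 in normal. Fibroblasts exceeded keratinocytes by log2 1.61 (SE 0.30, adjusted p = 1.9e-05), and keratinocytes exceeded endothelial cells by log2 1.56 (SE 0.39, adjusted p = 9.7e-04). In macrophages Tgfb2 was near the floor, with 0 UMIs in pretreatment, which allows up to 3 counts, and at most 42 UMIs (2.44 CPM, acute).

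Tgfb3 in fibroblasts was 27.9 CPM in pretreatment, 16.7 in continuous, 19.3 in acute, 23.9 in chronic, 13.8 in irradiated and 17.2 in normal. The pretreatment and chronic levels were the highest. Fibroblasts exceeded keratinocytes by log2 1.24 (SE 0.32, adjusted p = 0.0015), while keratinocytes, macrophages and T cells did not differ beyond their spread in neighbouring pairs. Keratinocytes over macrophages gave log2 0.48 (SE 0.33, adjusted p = 0.235 in edgeR), or log2 0.96 with an adjusted p of 0.017 by plain library sizes. Of all Tgfb3 UMIs in a library, macrophages supplied 0.772% in pretreatment, 30.5% in continuous, 32.6% in acute, 30.2% in chronic, 33.1% in irradiated and 9.61% in normal, and keratinocytes between 4.44% and 14.8%. Pericytes or smooth muscle cells, the contractile cells around vessels, reached 50 cells in 2 libraries. They held 64.3 CPM of Tgfb3 in continuous and 141 in acute, and of Tgfb2 40.2 CPM in continuous and 145 in acute. These rest on 10 to 33 UMIs each.

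Inhba varied widely between libraries. In macrophages it stood at 18.7 CPM in pretreatment, 579 in continuous, 639 in acute, 759.5 in chronic, 712 in irradiated and 967 in normal. In fibroblasts it was 111 CPM in pretreatment, 375 in continuous, 582 in acute, 233 in chronic, 647 in irradiated and 447 in normal. Pretreatment was the lowest library in both types, and macrophages were above fibroblasts in 5 of the 6 libraries, all but pretreatment. Macrophages averaged 613 ± 320.0 CPM (SD, n = 6), or 731 ± 149 without pretreatment (n = 5), and fibroblasts 399 ± 204 (n = 6), or 457 ± 165 (n = 5). The 2 types did not differ beyond that spread (log2 0.47, SE 0.45, adjusted p = 0.394). Both exceeded keratinocytes, macrophages by log2 3.53 (SE 0.48, adjusted p = 1.1e-07) and fibroblasts by log2 3.05 (SE 0.48, adjusted p = 1.7e-06).

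The Inhba levels of T cells and neutrophils lay beside macrophage transcripts in their gates. In T cells Inhba was 0 CPM in pretreatment, 6.52 in continuous, 130.5 in acute, 82.4 in chronic, 148 in irradiated and 168 in normal. The 12 macrophage markers summed there to 384 CPM in pretreatment, 639 in continuous, 1381 in acute, 1063 in chronic, 1438 in irradiated and 1283 in normal. That is 6.18% to 18.7% of their level in macrophages, against 0% to 20.8% for Inhba. All 12 were detected in T cells except in pretreatment, where Adgre1, Ms4a7 and Fcgr1 were at 0. Neutrophils averaged 231 ± 99.9 CPM of Inhba (SD, n = 5). Macrophages over neutrophils was not called (log2 0.88, SE 0.45, adjusted p = 0.098 in edgeR), although plain library sizes gave log2 1.76 (adjusted p = 0.0012). Nor was fibroblasts over neutrophils (log2 0.41, SE 0.48, adjusted p = 0.496), where plain library sizes gave log2 1.59 (adjusted p = 0.0047). In neutrophils the markers stood at 5.53% to 18.9% of the macrophage level and Inhba at 13.5% to 46.2%, with all 12 markers detected in each of 5 libraries. In fibroblasts the markers stood at 2.42% to 8.03%, while Inhba stood at 30.7% (chronic) to 593% (pretreatment) of the macrophage level. How much of the Inhba in T cells and neutrophils came from macrophage RNA was not tested.

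Fst, the gene of the activin antagonist follistatin, was a gene of keratinocytes and fibroblasts. Keratinocytes held 96.3 CPM in pretreatment, 523 in continuous, 677 in acute, 487 in chronic, 606 in irradiated and 734 in normal. Fibroblasts held 156 CPM in pretreatment, 755 in continuous, 349 in acute, 279 in chronic, 297 in irradiated and 195 in normal. Pretreatment was lowest in both types, and continuous was the highest of the fibroblasts only. The means of 521 ± 227 CPM in keratinocytes and 339 ± 216 in fibroblasts (SD, n = 6 each) did not differ beyond their spread (log2 0.33, SE 0.24, adjusted p = 0.250). Fibroblasts exceeded macrophages by log2 5.41 (SE 0.29, adjusted p = 2.9e-17), and the macrophage level was 0.945 to 13.2 CPM. The 12 fibroblast markers in keratinocytes summed to 0.362% to 1.29% of their fibroblast level, where Fst stood at 61.5% to 377% of its own. In these libraries Inhba and Fst were thus high together in fibroblasts, while macrophages held Inhba with little Fst and keratinocytes Fst with less Inhba.

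**Figure D2:**
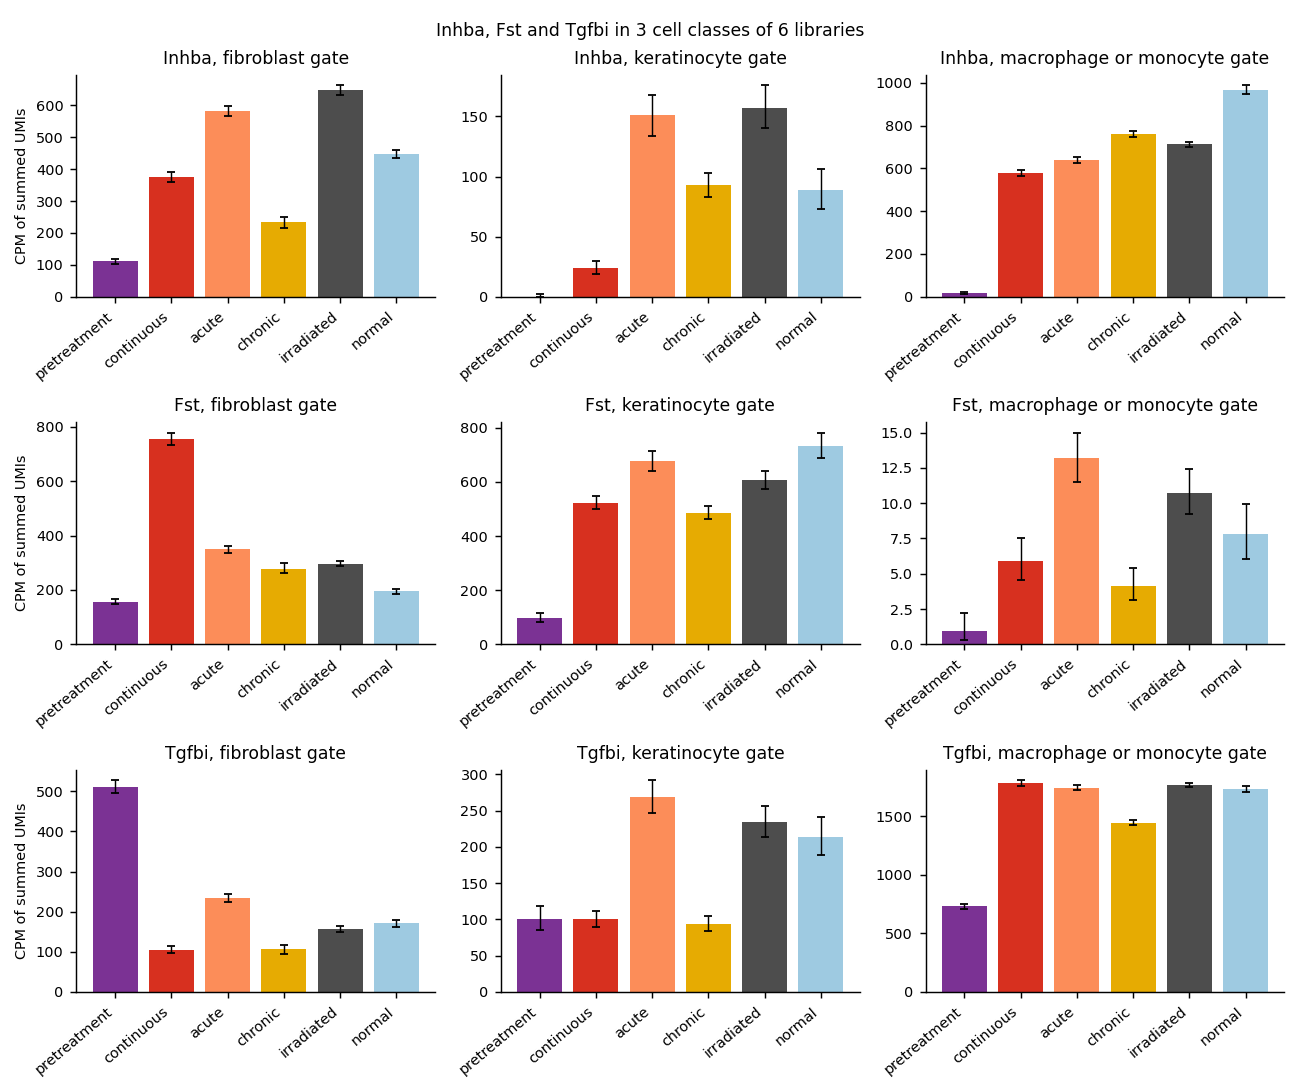
CPM of summed UMIs of Inhba, Fst and Tgfbi in the fibroblast, keratinocyte and macrophage or monocyte gates of the 6 libraries, with 1 bar for each library and exact 95% intervals for counting error. Inhba was 0 in keratinocytes and 18.7 CPM in macrophages of pretreatment, Fst was highest in fibroblasts of continuous (755 CPM), and Tgfbi was highest in fibroblasts of pretreatment (511 CPM).

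The receptors differed in how specific they were. Tgfbr2, the ligand-binding type II receptor gene, was 539 CPM in pretreatment, 419.7 in continuous, 329 in acute, 455 in chronic, 309 in irradiated and 334 in normal fibroblasts. Every fibroblast value was above every endothelial value (161 to 206 CPM), and the types differed by log2 1.35 (SE 0.14, adjusted p = 1.6e-10). Endothelial cells in turn exceeded T cells by log2 0.96 (SE 0.14, adjusted p = 2.7e-07). Macrophages varied least, with 59.9 CPM in pretreatment, 62.4 in continuous, 56.5 in acute, 60.2 in chronic, 55.9 in irradiated and 53.4 in normal.

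Tgfbr3, the gene of betaglycan, a co-receptor that presents ligand, was almost as steady in fibroblasts. It was 315 CPM in pretreatment, 293 in continuous, 268 in acute, 241 in chronic, 260.3 in irradiated and 239 in normal. Fibroblasts exceeded endothelial cells (96.1 ± 17.8 CPM, SD, n = 6) by log2 1.81 (SE 0.27, adjusted p = 4.7e-07), and endothelial cells exceeded keratinocytes (22.8 ± 9.34 CPM) by log2 1.98 (SE 0.29, adjusted p = 4.4e-07). Macrophages held 0.933 to 6.20 CPM.

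Tgfbr1, the type I receptor gene, was the least specific of the 3, with 8 of 21 pairs of types called under both scalings against 17 for Tgfbr2 and 15 for Tgfbr3. It averaged 74.4 ± 27.7 CPM in macrophages, 52.6 ± 4.91 in fibroblasts and 44.6 ± 17.6 in T cells (SD, n = 6 each). In macrophages it was 24.8 CPM in pretreatment, 62.3 in continuous, 97.9 in acute, 81.1 in chronic, 98.1 in irradiated and 82.2 in normal, so that the lowest library was again pretreatment. In T cells pretreatment was the highest instead, at 77.2 CPM, against 25.5 in continuous, 44.8 in acute, 37.1 in chronic, 46.5 in irradiated and 36.7 in normal.

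Smad7, which targets the activated type I receptor for degradation, was highest in T cells. They held 371 CPM in pretreatment, 256 in continuous, 375 in acute, 431 in chronic, 362 in irradiated and 328 in normal, each above every value of the 6 other tested types. The mean of 354 ± 58.5 CPM exceeded that of fibroblasts (188 ± 24.8 CPM, SD, n = 6 each) by log2 0.76 (SE 0.19, adjusted p = 8.6e-04) and that of macrophages (131 ± 53.3 CPM) by log2 1.07 (SE 0.19, adjusted p = 1.2e-05). In macrophages Smad7 was 46.9 CPM in pretreatment, 94.6 in continuous, 149.9 in acute, 176 in chronic, 128 in irradiated and 189.7 in normal.

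Tgfbi, a secreted matrix protein gene that TGF-beta induces, was a macrophage gene in these data. Macrophages held 730.1 CPM in pretreatment, 1782 in continuous, 1743 in acute, 1443 in chronic, 1766 in irradiated and 1732 in normal. Fibroblasts held 511 CPM in pretreatment, 104 in continuous, 233 in acute, 106 in chronic, 157 in irradiated and 171 in normal. Pretreatment was the lowest library in macrophages and the highest in fibroblasts. Macrophages exceeded fibroblasts by log2 3.05 (SE 0.52, adjusted p = 5.8e-06) and neutrophils (395 ± 104 CPM, SD, n = 5) by log2 1.15 (SE 0.49, adjusted p = 0.048). Neutrophils stood at 18.0% to 32.1% of the macrophage level of Tgfbi where the macrophage markers stood at 5.53% to 18.9%, and the part of macrophage RNA in that was not tested.

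The share of each gene's UMIs that a type supplied followed both its level and its cell number. Fibroblasts supplied 59.9% to 88.9% of the Tgfb2 UMIs, 74.3% to 92.3% of Tgfbr3 and 45.4% to 86.2% of Tgfbr2 in the kept cells. Macrophages supplied 40.2% to 53.2% of Tgfb1 and 46.5% to 85.1% of Tgfbi. Fibroblasts supplied 45.8% of Tgfbi in pretreatment, where macrophages were at 46.5%, and 1.37% to 8.01% in the other libraries. For Inhba the supply also differed in pretreatment, where fibroblasts held 83.5% of the UMIs and macrophages 10.0%. In the other libraries fibroblasts held 4.95% to 25.3% and macrophages 43.3% to 73.6%. Summed over all kept cells Inhba was 55.8 CPM in pretreatment, 279.9 in continuous, 515 in acute, 444 in chronic, 550.3 in irradiated and 537 in normal.

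**Figure D3:**
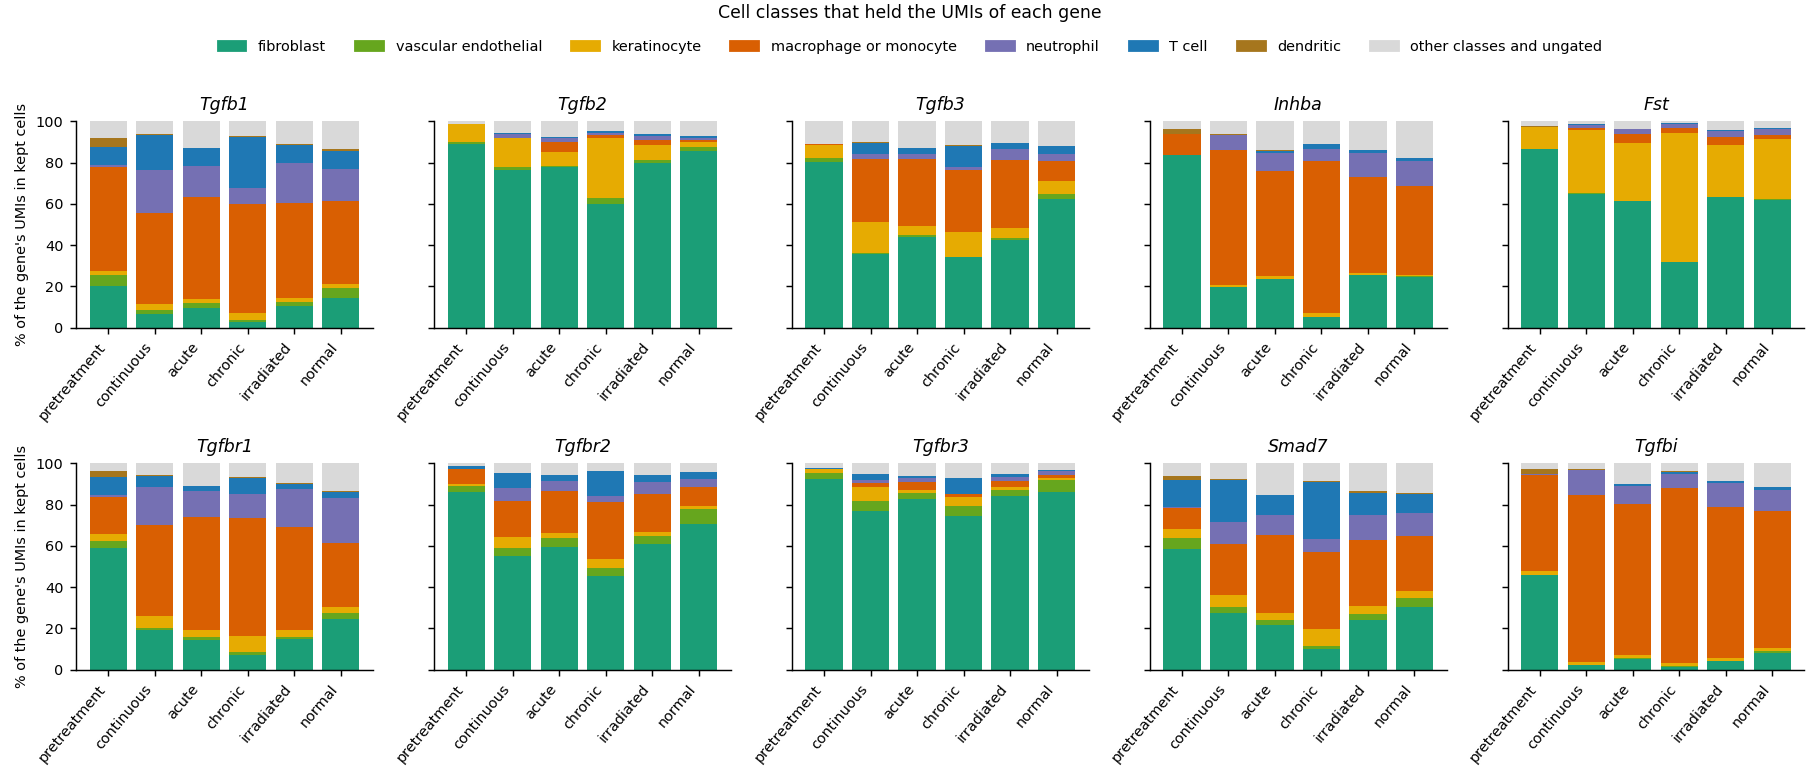
Percent of each gene's UMIs in the kept cells of a library that came from each cell type, with 1 stacked bar for each of the 6 libraries and grey for other types and ungated cells. Inhba UMIs came mostly from fibroblasts (83.5%) in pretreatment and macrophages or monocytes were their largest supplier (43.3% to 73.6%) in the other libraries.

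The 5 comparisons between labels set 1 library against 1 library. No test between labels was possible, ratios of CPM carry exact 95% intervals that cover counting error only, and 1.5-fold is used to describe size. The 4 schedules share the irradiated library. A gene in a type was measured when both sums held at least 20 UMIs together, which left 284 ratios above 0. Of these, 83 were 1.5-fold or more from 1, and the interval excluded 1 in 70 of the 83.

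Pretreatment against irradiated held the largest differences, with 24 of 42 ratios 1.5-fold or more from 1 and 3 more whose pretreatment sum was 0. In macrophages 8 of 10 members were lower and 0 higher, against 25.3% lower and 28.7% higher of all genes, and the members' median log2 ratio was -1.98 against 0.10 over all genes. Inhba had 99 UMIs in pretreatment and 11888 in irradiated macrophages, a level 38.0-fold lower (31.2 to 46.8). Tgfbr1 was 3.96-fold lower (3.31 to 4.77), Smad7 2.72-fold lower (2.38 to 3.12) and Tgfbi 2.42-fold lower (2.34 to 2.50), while Tgfb1 and Tgfbr2 differed by less than 1.5-fold. The other 4 lower members rested on few UMIs in pretreatment. Tgfb2 had 0 UMIs in pretreatment and 24 in irradiated, at least 2.53-fold lower at the floor of 3 UMIs, and Tgfb3 had 2 in pretreatment and 107 in irradiated, 16.9-fold lower (4.58 to 142). Fst had 5 UMIs in pretreatment and 179 in irradiated, 11.3-fold lower (4.77 to 35.3), and Tgfbr3 8 in pretreatment and 99 in irradiated, 3.92-fold lower (1.91 to 9.33). These 4 genes are higher in fibroblasts, whose markers in the macrophage gate summed to 218 CPM in pretreatment and 736 in irradiated, with 12 of 12 detected in both, and the part of fibroblast RNA was not tested. Both sides of the comparison differed in depth, at a median of 13911 UMIs per macrophage in pretreatment and 2140.0 in irradiated. With every cell thinned to 1000 UMIs, 1.10% of pretreatment macrophages held an Inhba UMI (95% interval 0.302 to 2.80) against 27.9% in irradiated (26.7 to 29.1). Unthinned shares were 5.74% in pretreatment and 38.2% in irradiated. In T cells, taken as a type that should hold little Inhba, the thinned share was 0% in pretreatment (0 of 112 cells, which allows up to 2.68%) at a median of 5640.0 UMIs. It was 7.36% in irradiated T cells at a median of 1273 UMIs.

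Fibroblasts of pretreatment had 3 members higher and 2 lower, near the background of 22.1% higher and 20.5% lower. Inhba was 5.83-fold lower (5.42 to 6.27) and Fst 1.90-fold lower (1.77 to 2.03). Tgfbi was 3.25-fold higher (3.07 to 3.45), Tgfb3 2.03-fold higher (1.63 to 2.53) and Tgfbr2 1.75-fold higher (1.67 to 1.83). Thus the activin genes and the TGF-beta target Tgfbi lay on opposite sides in fibroblasts, whereas both Inhba and Tgfbi were lower in macrophages. The 827 Inhba UMIs of pretreatment fibroblasts sat in few cells: the tenth of cells with the most held 94.7% of them, against 67.4% to 76.7% in the other libraries.

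In keratinocytes of pretreatment 7 of 10 members were lower and 1 higher, against 35.5% and 21.5% of all genes. Fst was 6.30-fold lower (5.28 to 7.57). Inhba had 0 UMIs in pretreatment and 309 in irradiated, which is at least 75.2-fold lower when the 0 is set to a floor of 3 UMIs. Tgfbr1 was 2.95-fold lower (1.90 to 4.72), Tgfbi 2.31-fold (1.91 to 2.80), Tgfb1 2.18-fold (1.59 to 3.02) and Smad7 1.81-fold lower (1.44 to 2.30). Tgfbr2 was 1.54-fold lower (1.10 to 2.19) and Tgfbr3 1.51-fold higher (0.953 to 2.41). Macrophage markers in the keratinocyte gate summed to 154 CPM in pretreatment, where Adgre1, C1qb, Ms4a7, Fcgr1, Ly6c2 and Ms4a6c were at 0, and to 584 CPM in irradiated, where 12 of 12 were detected. The part of macrophage RNA in these differences was not tested. The pretreatment sum came from 86 cells, and the median of all genes was -0.20 on the log2 scale.

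Endothelial cells of pretreatment had 3 of 8 measured members lower and 0 higher, against 28.1% and 18.1% of all genes, with Tgfbi 10.1-fold lower (5.96 to 18.4). Inhba had 2 UMIs in pretreatment and 54 in irradiated, 22.5-fold lower (5.93 to 190.3), and Tgfb2 7 in pretreatment and 15 in irradiated, 1.78-fold lower (0.685 to 5.17). Macrophage markers in the endothelial gate summed to 84.7 CPM in pretreatment, with Fcgr1 and Ly6c2 at 0, and to 600.4 CPM in irradiated, with 12 of 12 detected, and their part in the Inhba and Tgfbi differences was not tested. T cells had 2 of 7 lower and 1 higher, against 30.4% and 16.4%. Inhba was at least 40.9-fold lower there (0 UMIs in pretreatment, 296 in irradiated) and Tgfbi 62.7-fold lower (21.3 to 305), beside macrophage markers of 384 CPM in pretreatment and 1438 in irradiated T cells. Tgfbr1 in T cells was 1.66-fold higher (1.19 to 2.31).

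**Figure D4:**
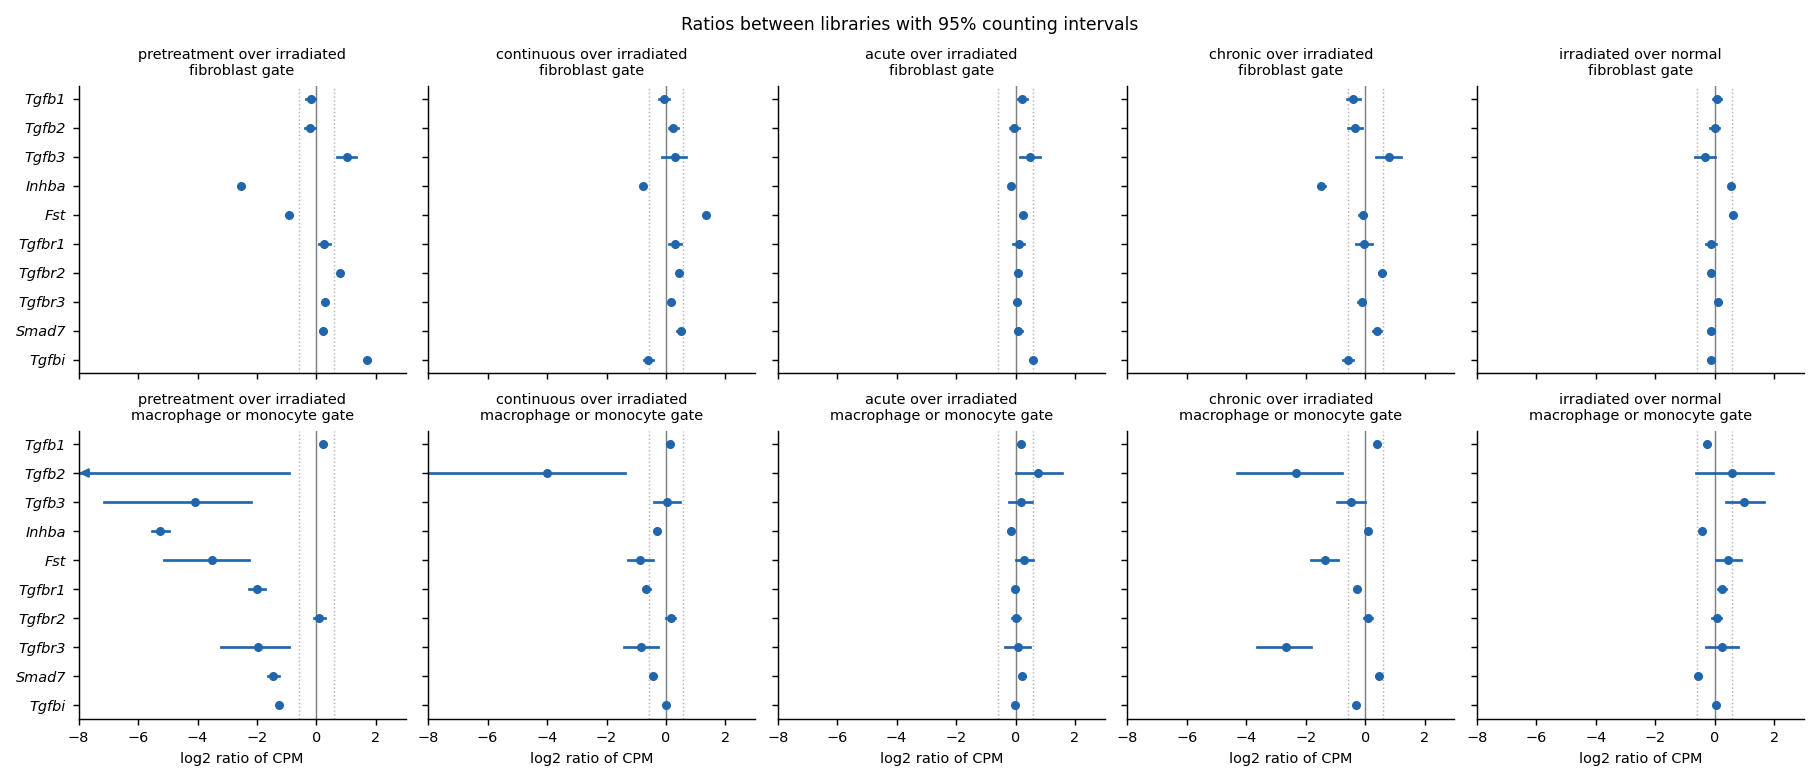
Log2 ratio of CPM for each gene in the fibroblast gate and in the macrophage or monocyte gate, for each patch schedule over irradiated and for irradiated over normal, with 95% counting intervals. Dotted lines mark 1.5-fold and an arrow a ratio with 0 UMIs on the first side. Inhba lies far to the left of 0 in macrophages of pretreatment (38.0-fold lower), while Fst in continuous fibroblasts lies to the right (2.54-fold higher).

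Continuous against irradiated held 24 of 57 ratios 1.5-fold or more from 1, of which 22 were lower. Fibroblasts had 1 member higher and 2 lower, against 15.7% and 16.3% of all genes. The one was Fst, 2.54-fold higher (2.42 to 2.67), with 30.3% of thinned fibroblasts holding a UMI in continuous and 18.8% in irradiated. Unthinned, the shares were 60.1% in continuous at a median of 8749 UMIs and 48.3% in irradiated at 4596 UMIs. The thinned share in T cells was 0.652% in continuous and 0.646% in irradiated. Inhba was 1.72-fold lower (1.64 to 1.81) and Tgfbi 1.51-fold lower (1.36 to 1.66), so that Fst and Inhba lay on opposite sides of irradiated. In macrophages 4 of 10 were lower and 0 higher, against 20.6% and 14.7%, among them Tgfbr1, 1.58-fold lower (1.44 to 1.73). The other 3 were Tgfb2 (1 UMI in continuous, 24 in irradiated, 16.1-fold lower, 2.62 to 661), Fst (66 in continuous, 179 in irradiated, 1.82-fold lower, 1.36 to 2.45) and Tgfbr3 (37 in continuous, 99 in irradiated, 1.79-fold lower, 1.22 to 2.69). Fibroblast markers in the macrophage gate summed to 197 CPM in continuous and 736 in irradiated, and their part in these 3 differences was not tested. Inhba and Tgfbi in macrophages differed by less than 1.5-fold.

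In keratinocytes of continuous 5 of 10 were lower and 1 higher, against 24.3% and 19.0%. Inhba was 6.60-fold lower (5.17 to 8.51), Tgfbi 2.33-fold (2.03 to 2.69), Tgfbr1 1.96-fold (1.47 to 2.62), Smad7 1.84-fold (1.54 to 2.20) and Tgfb1 1.63-fold lower (1.31 to 2.03), while Tgfbr3 was 1.94-fold higher (1.34 to 2.86). Macrophage markers summed to 225 CPM in continuous and 584 in irradiated keratinocytes. Endothelial cells had 3 of 8 lower and 0 higher, against 22.8% and 15.1%, with Tgfbi 2.48-fold lower (1.84 to 3.38), Inhba 10.8-fold (4.00 to 41.2) and Tgfbr1 1.93-fold lower (1.03 to 3.79). Macrophage markers there summed to 226 CPM in continuous and 600.4 in irradiated. T cells had 3 of 9 lower and 0 higher, against 22.7% and 13.2%, with Inhba 22.7-fold lower (14.7 to 36.8), Tgfbi 15.6-fold (11.6 to 21.5) and Tgfbr1 1.83-fold lower (1.35 to 2.48), beside macrophage markers of 639 CPM in continuous and 1438 in irradiated. In neutrophils 5 of 10 were lower and 0 higher, where 50.1% of all genes were lower and 6.88% higher. Their median gene was at log2 -0.59, and Inhba at log2 -1.89, 3.70-fold lower (3.41 to 4.02), lay beyond it. Tgfb3 was 2.47-fold lower in neutrophils (0.931 to 7.66), Tgfbr3 1.77-fold (1.14 to 2.82), Tgfbr1 1.72-fold (1.49 to 1.98) and Smad7 1.59-fold lower (1.42 to 1.80). Macrophage markers in the neutrophil gate summed to 571 CPM in continuous and 1451 in irradiated. The part of macrophage RNA in the keratinocyte, endothelial, T cell and neutrophil differences was not tested.

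Chronic against irradiated held 18 of 61 ratios 1.5-fold or more from 1, of which 17 were lower. In fibroblasts Inhba was 2.77-fold lower (a ratio of 0.361, 0.333 to 0.390) and Tgfb3 1.73-fold higher (1.29 to 2.32), so 1 was lower and 1 higher, against 11.5% and 13.4% of all genes. In keratinocytes 3 of 10 were lower and 0 higher, against 22.4% and 9.93%, with Tgfbi 2.50-fold (2.16 to 2.89), Inhba 1.70-fold (1.45 to 1.99) and Tgfbr3 1.65-fold lower (1.03 to 2.62). Macrophage markers in the keratinocyte gate summed to 290.1 CPM in chronic and 584 in irradiated. In macrophages 3 of 10 were lower and 0 higher, against 13.9% and 10.3%. These were Tgfbr3 (13 UMIs in chronic, 99 in irradiated), Fst (58 in chronic, 179 in irradiated) and Tgfb2 (4 in chronic, 24 in irradiated), all low in macrophages and high in fibroblasts. Fibroblast markers in the macrophage gate summed to 121 CPM in chronic and 736 in irradiated, with all 12 detected in both. The part of fibroblast RNA in those differences was not tested. Neutrophils had 4 of 10 lower and 0 higher, against 26.9% and 9.98%, with Inhba 1.60-fold lower (1.48 to 1.73) beside macrophage markers of 734 CPM in chronic and 1451 in irradiated. The other 3 had few UMIs in neutrophils. They were Tgfbr3 (3 in chronic, 63 in irradiated, 9.24-fold lower, 3.02 to 46.0), Tgfb3 (3 in chronic, 17 in irradiated, 2.49-fold, 0.721 to 13.3) and Tgfb2 (4 in chronic, 20 in irradiated, 2.20-fold, 0.737 to 8.85), beside fibroblast markers of 164 CPM in chronic and 865 in irradiated. Endothelial cells had 2 of 8 lower and 0 higher, against 18.0% and 11.9%, with Inhba 3.41-fold (1.72 to 7.51) and Tgfbi 2.05-fold lower (1.51 to 2.82), beside macrophage markers of 263 CPM in chronic and 600.4 in irradiated. The direction of Inhba there turned with doublets removed at Scrublet's own threshold. T cells had 3 of 9 lower and 0 higher, against 19.8% and 8.41%, with Tgfbi 3.01-fold (2.61 to 3.49), Fst 1.93-fold (0.771 to 4.78) and Inhba 1.80-fold lower (1.53 to 2.10), beside macrophage markers of 1063 CPM in chronic and 1438 in irradiated. For Tgfbi and Inhba in T cells the direction turned under the same threshold. Dendritic cells had 1 of 4 lower and 0 higher, against 27.2% and 15.3%, which was Smad7, 2.00-fold lower (1.16 to 3.57). The part of free or mixed RNA in these differences was not tested.

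Acute against irradiated held 7 of 62 ratios 1.5-fold or more from 1. With doublets removed at Scrublet's own threshold 15 of 60 were past 1.5-fold, and with types from Leiden clusters 4 of 62. No member reached 1.5-fold in fibroblasts or keratinocytes, where 5.42% and 7.19% of all genes were higher and 3.55% and 12.1% lower. Inhba in fibroblasts was 582 CPM in acute and 647 in irradiated, and in macrophages 639 CPM in acute and 712 in irradiated. The 7 ratios past 1.5-fold each rested on at most 91 UMIs in acute and 63 in irradiated. Endothelial cells had 1 of 9 measured members higher and 1 lower, against 7.39% and 7.29% of all genes. The higher one was Inhba, with 91 UMIs in acute and 54 in irradiated, 1.56-fold higher (1.10 to 2.23), and the lower one Tgfb2, with 5 UMIs in acute and 15 in irradiated, 3.23-fold lower (1.12 to 11.4). Macrophages had 1 of 10 higher and 0 lower, against 4.38% and 3.85%, neutrophils 1 and 0 of 10, against 16.0% and 3.51%, and T cells 1 and 0 of 9, against 6.40% and 6.78%. In macrophages this was Tgfb2, with 42 UMIs in acute and 24 in irradiated, 1.69-fold higher (1.00 to 2.93). In neutrophils it was Tgfbr3, 1.59-fold higher (1.10 to 2.29), and in T cells Fst, with 17 UMIs in acute and 11 in irradiated, 1.78-fold higher (0.785 to 4.20). The direction of this Tgfbr3 ratio turned with cells thinned, and that of Fst with doublets kept. Dendritic cells had 1 of 4 higher and 1 lower, against 12.0% and 15.4%, with Inhba at 27 UMIs in acute and 29 in irradiated, 2.40-fold higher (1.37 to 4.19), and Tgfbi at 12 UMIs in acute and 55 in irradiated, 1.78-fold lower (0.942 to 3.65). The direction of Tgfbi there turned with Leiden clusters and with Scrublet's own threshold.

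Irradiated against normal held 10 of 62 ratios 1.5-fold or more from 1, and the interval excluded 1 in 5 of them. In fibroblasts 1 of 10 was higher and 0 lower, against 6.34% and 9.41% of all genes. This was Fst, 1.53-fold higher (1.44 to 1.62). In keratinocytes 2 were higher and 1 lower, against 11.8% and 10.6%, with Inhba 1.78-fold higher (1.43 to 2.22), Tgfb2 2.13-fold higher (1.30 to 3.60) and Tgfb3 1.85-fold lower (0.879 to 3.94). In macrophages 1 was higher and 0 lower, against 9.25% and 7.77%: Tgfb3, with 107 UMIs in irradiated and 27 in normal, 1.98-fold higher (1.29 to 3.14). In T cells 2 of 9 were higher and 1 lower, against 9.59% and 8.75%. Tgfbi was 1.63-fold higher there (1.39 to 1.91), and this direction turned under another doublet threshold. Tgfbr3 was 1.52-fold higher (0.858 to 2.77) and Tgfb3 1.58-fold lower there (0.610 to 4.24), and the direction of Tgfb3 turned with types from Leiden clusters. Endothelial cells had 1 of 9 higher and 0 lower, against 10.7% and 9.61%, which was Fst, 1.59-fold higher (0.637 to 3.94). Neutrophils had 1 of 10 higher and 0 lower, against 11.0% and 13.1%, which was Tgfb2, 1.53-fold higher (0.667 to 3.82), and dendritic cells 0 and 0 of 4, against 15.0% and 13.4%.

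Within macrophages Inhba, Smad7, Tgfbr2 and Tgfbi differed between cells with and without a UMI of the marker genes below. The other members tested were called in neither split. Cells were split by whether they held a UMI of Arg1, an arginase gene of wound macrophages, or of Folr2 or Lyve1, genes of resident macrophages around vessels. The marker genes were picked after the genes that lead clusters of these data had been seen. Cells with Arg1 were 0.546% of macrophages in pretreatment, 7.98% in continuous, 37.0% in acute, 29.3% in chronic, 38.2% in irradiated and 28.5% in normal. Pretreatment, with 2 such cells, was left out of the test. Inhba in cells with Arg1 was 1419 CPM in continuous, 863 in acute, 988 in chronic, 974 in irradiated and 1406 in normal. In cells without Arg1 it was 498 CPM in continuous, 461 in acute, 655 in chronic, 502 in irradiated and 737 in normal.

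Every value with Arg1 lay above every value without it, and the difference over 5 libraries was log2 1.03 (SE 0.09, adjusted p = 8.7e-06, edgeR with the library as a block). Smad7 rose by log2 0.44 (SE 0.07, adjusted p = 9.2e-04) in 5 of 5 libraries and Tgfbi by log2 0.33 (SE 0.09, adjusted p = 0.024) in 4 of 5. Tgfbr2 fell by 0.41 on the log2 scale (SE 0.08, adjusted p = 0.0057) in 5 of 5. Of the 9 members tested 3 rose and 1 fell, where 7.13% of all genes rose and 5.37% fell. Median depth was 4369 UMIs with and 4270.0 without Arg1 in chronic, and 2474 with and 1960.5 without in irradiated.

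Cells with Folr2 or Lyve1 showed the reverse order. They were 24.6% of macrophages in pretreatment, 18.8% in continuous, 7.11% in acute, 11.3% in chronic, 8.07% in irradiated and 6.74% in normal. Inhba in them was 0 CPM in pretreatment, 109 in continuous, 353 in acute, 267 in chronic, 329 in irradiated and 373 in normal. In the other macrophages it was 23.9 CPM in pretreatment, 719 in continuous, 672 in acute, 843 in chronic, 766 in irradiated and 1032 in normal. Inhba fell by 1.81 (SE 0.30, adjusted p = 0.0041), Tgfbi by 0.99 (SE 0.15, adjusted p = 0.0027) and Smad7 by 0.73 on the log2 scale (SE 0.11, adjusted p = 0.0028), each in 6 of 6 libraries. Tgfbr2 rose by log2 1.37 (SE 0.25, adjusted p = 0.0056), with 198 CPM against 21.5 in pretreatment as its widest gap. Of the 9 tested members 1 rose and 3 fell, where 10.2% of all genes rose and 11.0% fell. Median depth was 3284 UMIs with and 2081 without Folr2 or Lyve1 in irradiated, and 12847 with and 14144 without in pretreatment.

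Inhba was lower in pretreatment than in irradiated on both sides of this split. In macrophages without Folr2 or Lyve1 it was 23.9 CPM in pretreatment and 766 in irradiated, 32.0-fold lower (26.3 to 39.5). In those with either gene, pretreatment was at 0 (90 cells) and irradiated at 329 CPM. Cells with Arg1 were 0.546% of macrophages in pretreatment and 38.2% in irradiated, and their part in the difference was not tested. In continuous, Inhba was 109 CPM in cells with Folr2 or Lyve1 against 329 in irradiated, 3.02-fold lower (2.62 to 3.48), and close to irradiated in the rest (719 and 766 CPM).

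**Figure D5:**
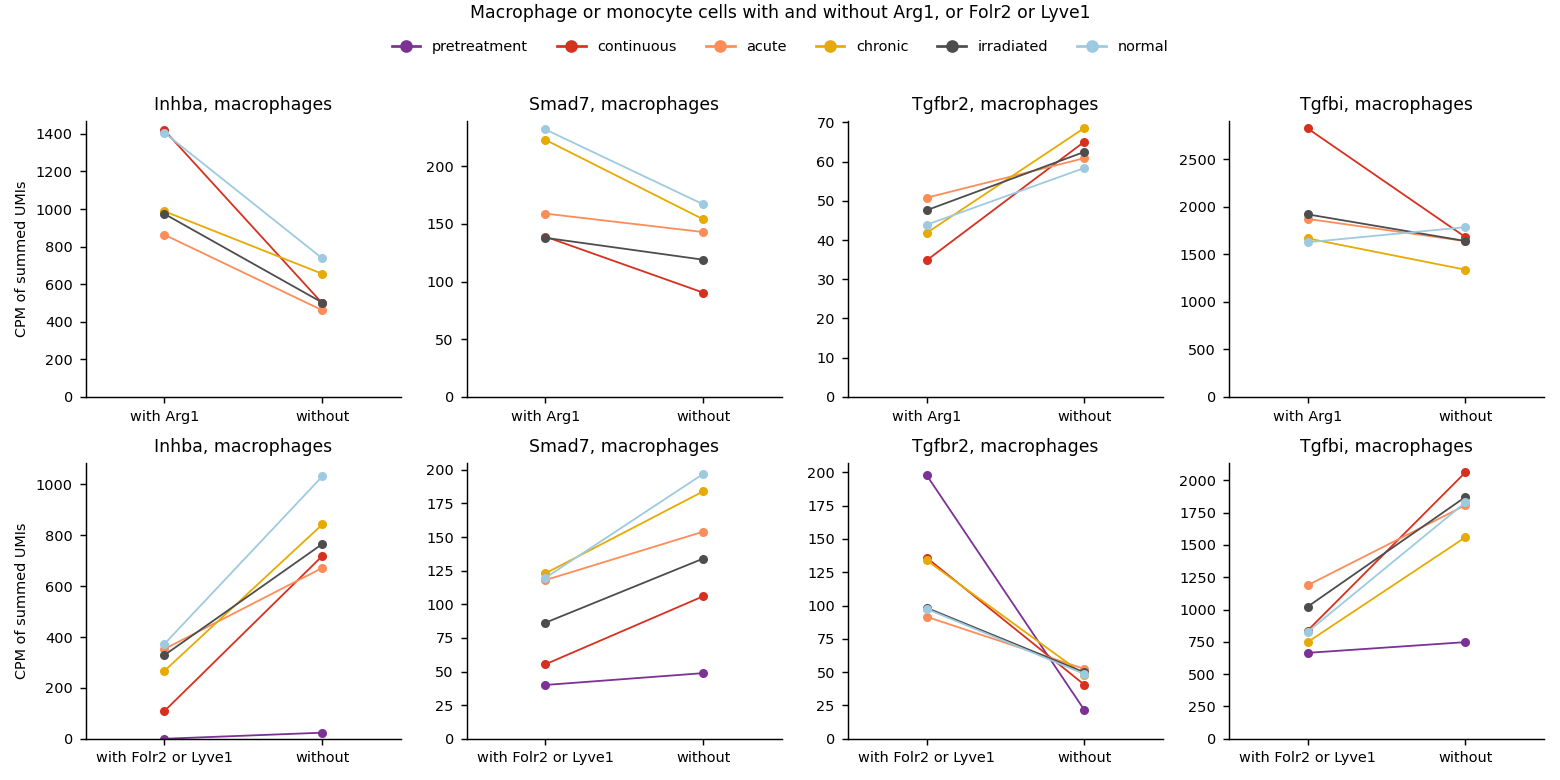
CPM of Inhba, Smad7, Tgfbr2 and Tgfbi in macrophages or monocytes with against without an Arg1 UMI (upper row, 5 libraries) and with against without a Folr2 or Lyve1 UMI (lower row, 6 libraries), with 1 line for each library. Inhba was higher with Arg1 in 5 of 5 libraries and lower with Folr2 or Lyve1 in 6 of 6, and Tgfbr2 ran the other way in both rows.

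Fibroblasts were split in the same way. Cells with Pi16 or Dpp4, genes of the fibroblasts of deep fascia and of adventitia, were 70.5% of fibroblasts in pretreatment, 59.9% in continuous, 31.6% in acute, 44.8% in chronic, 44.3% in irradiated and 45.2% in normal. Tgfbr2 in them was 578 CPM in pretreatment, 472 in continuous, 398 in acute, 571 in chronic, 354 in irradiated and 425 in normal. The other fibroblasts held 353 CPM in pretreatment, 306 in continuous, 286 in acute, 341 in chronic, 256 in irradiated and 218 in normal. Tgfbr2 rose by log2 0.71 (SE 0.08, adjusted p = 5.7e-05) and Tgfbr3 by log2 0.31 (SE 0.07, adjusted p = 0.0089), in 6 of 6 libraries each. All 3 ligand genes fell in 6 of 6 libraries, Tgfb3 by 0.58 (SE 0.11, adjusted p = 0.0039), Tgfb1 by 0.38 (SE 0.07, adjusted p = 0.0031) and Tgfb2 by 0.29 on the log2 scale (SE 0.08, adjusted p = 0.029). Tgfbi fell by 0.57 (SE 0.11, adjusted p = 0.0039), whereas Inhba, Fst, Tgfbr1 and Smad7 were not called. Thus 2 of 10 rose and 4 fell, where 4.75% of all genes rose and 3.55% fell. Cells with either gene were the deeper ones, at medians of 5786 UMIs against 3587 in irradiated.

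Cells with Wif1, Pappa2, Coch or Slc26a7 were 36.3% of fibroblasts in pretreatment, 46.2% in continuous, 7.91% in acute, 24.2% in chronic, 9.38% in irradiated and 8.81% in normal. Smad7 rose in them by log2 0.58 (SE 0.09, adjusted p = 0.0015) and Tgfbr1 by log2 0.50 (SE 0.13, adjusted p = 0.017), in 6 of 6 libraries, so 2 of 10 rose and 0 fell, where 10.7% of all genes rose and 9.85% fell. Inhba was not called over the libraries (log2 0.43, SE 0.35, adjusted p = 0.423), and its order differed between them. It was 210.5 CPM with these genes against 31.8 without in pretreatment, 470.2 against 279 in continuous and 395 against 186 in chronic. In acute it was 599 against 581, in normal 421 against 449 and in irradiated 339 against 677. In pretreatment 695 of the 827 fibroblast UMIs of Inhba were in these cells, and there the level was 1.61-fold below irradiated (1.40 to 1.85), against 21.3-fold (17.9 to 25.4) in the remaining fibroblasts.

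Cells with Cxcl5, a neutrophil-attracting chemokine gene, were 1.40% of fibroblasts in pretreatment, 35.7% in continuous, 50.3% in acute, 40.3% in chronic, 57.2% in irradiated and 47.0% in normal. Over the 5 libraries without pretreatment Fst rose in them by log2 0.37 (SE 0.10, adjusted p = 0.022), while Tgfbr2 fell by 0.36 (SE 0.07, adjusted p = 0.0037) and Tgfbi by 0.35 (SE 0.08, adjusted p = 0.0084), each in 5 of 5. That is 1 of 10 up and 2 down, where 11.3% of all genes rose and 11.0% fell. Cells with Cxcl5 were deeper, at medians of 6022 UMIs against 2849 in irradiated and 12252 against 6432 in continuous. Continuous fibroblasts with Cxcl5 held the highest Fst level, 929 CPM against 578 without.

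The wider pathway was counted in a list of 70 further genes found in the files. In fibroblasts 13 of 68 measured genes were 1.5-fold or more higher and 20 lower in pretreatment against irradiated, set beside 22.1% and 20.5% of all genes. The counts were 18 higher and 11 lower in continuous (15.7% and 16.3% of all genes), 3 and 1 in acute (5.42% and 3.55%), 11 and 7 in chronic (13.4% and 11.5%), and 7 and 5 in irradiated against normal (6.34% and 9.41%), each of 68. In macrophages the counts were 3 higher and 40 lower of 61 in pretreatment (28.7% and 25.3% of all genes), 1 and 31 of 63 in continuous (14.7% and 20.6%) and 1 and 32 of 63 in chronic (10.3% and 13.9%), but 5 and 3 of 63 in acute (4.38% and 3.85%) and 8 and 5 of 63 in irradiated against normal (9.25% and 7.77%). All 15 measured target genes were lower in pretreatment macrophages, 13 of 15 in continuous and 13 of 15 in chronic. Several of these, such as the collagen-linked Cthrc1 and Lox, are fibroblast genes, and the fibroblast markers in the macrophage gate were 218 CPM in pretreatment, 197 CPM in continuous and 121 CPM in chronic, where irradiated had 736 CPM. The part of fibroblast RNA in these counts was not tested.

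Tnc, the matrix gene tenascin C, was 14.5-fold lower in pretreatment (13.7 to 15.4) and 2.66-fold lower in chronic fibroblasts (2.55 to 2.77).

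Bmp4, a ligand of the related BMP branch, was 9.25-fold higher in pretreatment (7.44 to 11.6), 8.56-fold higher in continuous (6.82 to 10.8) and 2.26-fold higher in chronic fibroblasts (1.61 to 3.13), at 85.9 CPM in pretreatment, 79.5 CPM in continuous and 20.9 CPM in chronic, where irradiated had 9.29 CPM. Of 15 genes of latency and activation, 3 were higher and 6 lower in pretreatment fibroblasts, 2 higher and 4 lower in continuous, 0 and 0 in acute, and 2 and 2 in chronic, against the same backgrounds. Ltbp4, which ties latent TGF-beta to the matrix, was 7.58-fold higher in pretreatment (6.37 to 9.06) and 2.14-fold higher in chronic fibroblasts (1.65 to 2.77), and Ltbp1 3.08-fold higher in continuous (2.73 to 3.48). Nrros, a latency partner of myeloid cells, was 4.86-fold lower in continuous fibroblasts (3.02 to 8.26), at 19 UMIs in continuous and 178 in irradiated. Macrophage markers in the fibroblast gate summed to 249.9 CPM in continuous and 519 in irradiated, and their part in the Nrros difference was not tested. Grem1, a BMP antagonist gene, was 2.26-fold higher (2.06 to 2.49) and Cthrc1 1.78-fold lower (1.69 to 1.87) in irradiated than in normal fibroblasts. Acta2, the smooth muscle actin gene of contractile fibroblasts, was 1.66-fold higher in acute than in irradiated (1.52 to 1.81).

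In endothelial cells the activation genes Thbs1 and Itgav, a thrombospondin and an integrin chain that release latent TGF-beta, were lower in pretreatment and in continuous. Itgav was also lower in chronic, 3.22-fold (2.41 to 4.37). The whole list of latency and activation genes had 4 higher and 5 lower of 12 measured in pretreatment (18.1% and 28.1% of all genes, median log2 ratio 0.01). In continuous it had 2 higher and 4 lower of 11 (15.1% and 22.8%, median log2 ratio -0.02). In chronic it had 1 higher and 5 lower of 10 (11.9% and 18.0%, median log2 ratio -0.69). Thbs1 was 28.3-fold lower in pretreatment (20.0 to 41.3) and 4.09-fold lower in continuous (3.54 to 4.75), and Itgav 18.3-fold lower in pretreatment (10.5 to 34.8) and 3.83-fold lower in continuous (2.89 to 5.14). Macrophage markers in the endothelial gate were 84.7 CPM in pretreatment, 226 in continuous, 263 in chronic and 600.4 in irradiated, and the part of macrophage RNA was not tested. Ltbp4 was 5.25-fold higher in pretreatment (4.19 to 6.63) and 3.74-fold higher in continuous (2.95 to 4.77). Gdf15, a stress-induced member of the ligand family, was 3.45-fold higher in irradiated than in normal endothelial cells (2.76 to 4.32). In macrophages Id3, a BMP and TGF-beta target, was 216 CPM in irradiated and 64.4 in normal, 3.35-fold higher (3.06 to 3.67). In keratinocytes Tnc was 33.2-fold lower in pretreatment than in irradiated (12.8 to 123), with 4 UMIs in pretreatment.

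The genes most like each member were sought over 39 sums of type and library by Pearson's r of log2(CPM + 10), among 4474 genes that reached 100 CPM. Points from 1 library share its depth and free RNA, so r is a description without a p. Inhba was most like Vegfa, the vascular growth factor gene (r = 0.93), Saa3, an acute-phase gene (0.91), and Plac8 (0.88). Fst was most like Sfrp1, a Wnt antagonist gene (0.96), Cxcl14 and Egfr (0.95 each). Tgfbi was most like Csf1r, the macrophage growth factor receptor gene (0.89), Fnip2 (0.88) and F13a1 (0.87), and Tgfb1 like Ptpn18, Tpst2 (0.94 each) and Il2rg (0.93). Tgfb2 was most like Gas1, Rbms3 and Rcn1 (0.94 each), and Tgfb3 like Sdc2 (0.88), Dkk3 and Abi3bp (0.86 each).

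Of the receptors, Tgfbr2 was most like Lamc1, Sept8 (0.93 each) and Nucb1 (0.92), Tgfbr3 like Fkbp9, Lama4 and Cxcl12 (0.95 each), and Tgfbr1 only loosely like Tcp11l2 (0.78), Eea1 (0.75) and Slc16a10 (0.74). Smad7 was most like Pde4d (0.87), Pik3ca (0.84) and Rora (0.83). Among the members themselves the highest r was 0.91 between Tgfbr2 and Tgfbr3, and Inhba and Tgfbi had r = 0.71.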

How the data were processed

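Per the labels' protocols, skin was digested with collagenase, and droplet libraries (10x, 3' end, version 3 kit) were read on an Illumina instrument. The authors deposited raw counts of UMIs per gene and barcode, and per the file headers Cell Ranger 6.0.0 made them. The submitters' processing notes name Seurat 5.0.1 and the genome build Sscrofa11.1, whereas the gene identifiers in the files are of mouse. No sequence is printed.

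Cells with at least 500 UMIs, 300 genes and at most 20% mitochondrial UMIs were kept. The highest Scrublet scores (scanpy 1.11.5) were removed at 0.8% per 1000 barcodes, up to 10%, because Scrublet's own threshold marked unequal shares of cells. It marked 22.7% in irradiated, 2.50% in continuous, 0.334% in pretreatment, 0.0113% in normal, 0.0109% in chronic and 0% in acute. Each cell went to the 1 of 19 marker lists with the most detected genes, at least 3 and more than any other. Shares of cells with a UMI were thinned to 1000 UMIs per cell. Raw UMIs were summed by type and library where at least 50 cells were present. Levels are CPM. Cell types, and cells with against without a marker, were compared by edgeR 4.0.16 in R 4.3.3 with TMM scaling, the library as a block and Benjamini-Hochberg adjustment, tested beforehand on simulated data. Ratios between labels carry exact conditional Clopper-Pearson intervals at 95%, which cover counting error only, and a 0 was set to a floor of 3 UMIs.

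All 10 genes were to be named wherever they passed 1.5-fold in a type and comparison. Of the pathway list, up to 2 highest and 2 lowest ratios per comparison were eligible, among genes with at least 100 UMIs and an interval beyond 1.5-fold. Alternatives were DESeq2 1.42.0, other scalings, gates, filters and doublet rules, Leiden clusters and leaving out each library. The members and lists were chosen with earlier results of these data known. Hashtag counts were not used. A gene of the pathway list that met the rule is not reported here.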

Additional observations from a re-analysis of the deposited data

Results flagged for a closer look

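Antibody counts lie outside the main measurement and were found in 4 of the 6 libraries, well above what a count of 0 would allow. The libraries labelled acute held 30643720 antibody UMIs, chronic 22083108, irradiated 41181650 and normal 33849896. The features are 4 anti-mouse hashtags, and no source used here links a hashtag to an animal. The libraries labelled pretreatment and continuous held none.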

How the results depend on the processing

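No paired analysis was possible because each label had 1 library and the labels carry no replicate numbers. Of 210 tests of the 10 genes in pairs of types, 144 were called. DESeq2 called 145 (5 lost, 6 gained), no library block 132 (13 lost, 1 gained) and Leiden clusters 154 (9 lost, 19 gained). Leaving out 1 library gave 135 to 153. The count of label ratios past 1.5-fold moved for acute against irradiated (7) to 4 with classes from Leiden clusters and to 15 of 60 with doublets removed at Scrublet's own threshold, and for irradiated against normal (10 of 62) to 6 of 48 with cells thinned to 1000 UMIs. The cause was not tested.

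Directions turned as follows, as log2 values. With Leiden clusters, Tgfb3 log2 ratio, irradiated against normal, T cell became 0.08, Tgfbi log2 ratio, acute against irradiated, dendritic 0.40 and Tgfbi log2 fold, fibroblast over T cell -0.33. With doublets kept, Fst log2 ratio, acute against irradiated, T cell became -0.77 and Fst log2 fold, macrophage or monocyte over T cell -0.05. With cells thinned, Tgfbr3 log2 ratio, acute against irradiated, neutrophil became -0.28 and Smad7 log2 ratio, chronic against irradiated, dendritic 0.09.

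Scrublet's own threshold, plain library sizes, the fit without pretreatment and the marker splits were chosen after seeing the data. With the own threshold, Inhba log2 ratio, chronic against irradiated, vascular endothelial became 0.68, Tgfbi log2 ratio, irradiated against normal, T cell -0.72, Inhba log2 ratio, chronic against irradiated, T cell 0.55, Tgfbi log2 ratio, chronic against irradiated, T cell 0.43 and Tgfbi log2 ratio, acute against irradiated, dendritic 0.17. With plain library sizes, Tgfb1 log2 fold, dendritic over neutrophil became 0.01, Tgfbr1 log2 fold, fibroblast over neutrophil 0.07, Tgfbr2 log2 fold, keratinocyte over neutrophil 0.85, Smad7 log2 fold, keratinocyte over neutrophil 0.53 and Tgfb1 log2 fold, neutrophil over vascular endothelial -0.24. TMM scaling moved all genes by up to 0.45 on the log2 scale (neutrophils, continuous against irradiated), and 75 of 83 ratios stayed past 1.5-fold under it. With cells thinned to 1000 UMIs 41 of 57 stayed, with Leiden clusters 64 of 80 and with Scrublet's own threshold 67 of 80. The mean over cells of CPM per cell kept 66 of 83 and doublets kept 71 of 83. A stricter cell filter kept 74 of 77 and a stricter gate of 4 markers 77 of 78. With 1 library per label, more UMIs narrow only the counting intervals and leave the spread between animals unmeasured.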
